A study of Mus musculus with 10 samples.

Results

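The genes described here mark T cells, natural killer (NK) cells and B cells, the lymphocytes of a liver. They were taken by symbol from a written list of 32 genes, and each of the 32 was found among the 17274 rows of the expression table. The list holds 14 genes of T cells, 10 of NK and cytotoxic cells, 3 of B cells and 5 that several leukocyte types share. Membership goes by symbol and uses no threshold on a measured value, but the list was put together with earlier results of these data known.

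RNA was sequenced from 10 livers of wild-type mice. Each mouse had been fed a diet lacking choline, with defined amino acids and much fat (CDAHFD), which brings on nonalcoholic steatohepatitis (NASH), inflammation and scarring of a fat-laden liver. An adeno-associated virus (AAV), used as a carrier of genes, was given by vein: 5 livers carried a control AAV and the other 5 an AAV encoding miR-181d-5p. Diet and virus were thus shared by both groups. The promoter of the vector, its dose, the time between injection and harvest, the strain and the age are not given in the sources used here. Replicate numbers in the labels are not tied to animals. A p-value here therefore weighs a difference against the spread of these samples. That spread was more than read counting alone gives, with chi-square over its degrees of freedom at least 8.79 between livers of a group. Whether it comes from the animals or from sample handling is not given. The livers are called control 1 to 5 and miR-181d-5p 1 to 5.

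T cells recognise antigen through a receptor that signals by its CD3 chains and the kinases Lck and Zap70, helped by the coreceptors CD4 or CD8. NK cells and cytotoxic T cells kill with granules of perforin and granzymes, and B cells signal through the CD79 chains of their antigen receptor. In steatohepatitis lymphocytes gather in the liver and are known to take part in its inflammation. MicroRNAs of the miR-181 family lower the output of mRNAs that pair with their seed, and miR-181a is known in thymocytes for tuning the strength of T cell receptor signals.

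The 4 mature miRNAs of the family are shown because they share the seed by which such targets are found. The seed, bases 2 to 8, is in capitals, and the sequences are those of RefSeq (GRCm38.p6), 5′ to 3′.
miR-181a-5p: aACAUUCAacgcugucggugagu
miR-181b-5p: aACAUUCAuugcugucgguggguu
miR-181c-5p: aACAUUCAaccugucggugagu
miR-181d-5p: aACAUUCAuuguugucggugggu
The table holds 0 rows for miR-181 genes, and the microRNA itself was therefore not measured here.

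Sites that could pair with this seed were sought in the longest annotated 3′ UTR of each member (GENCODE vM21, the same build, mm10). The matches searched on the transcript strand were TGAATGTA (8mer), TGAATGT (7mer-m8) and GAATGTA (7mer-A1). The 8mer holds both shorter matches and was counted once. At least 1 match was present in 5 of 32 members (15.6%), tested or not, and in 2702 of 11769 tested genes with a 3′ UTR (23.0%). Among the tested members 3 had a match and 22 had none. The members' 3′ UTRs were shorter, with a median of 726 bases against 1114. The 5 genes with a match were Cd4, Cd8a, Cd28, Ms4a1 and Ptprc. The stretches of 30 bases around their sites are shown 5′ to 3′ on the transcript strand, with the match in capitals. Only these members held a match of the types searched. Shorter matches and other annotated 3′ UTRs were not searched.
Cd4, 8mer, chr6:124866171-124866178, minus strand, exon 10 of 10: tggggaccagaTGAATGTAgcagacacgct
Cd8a, 8mer, chr6:71377721-71377728, plus strand, exon 4 of 4: ggcgttgaatcTGAATGTAatgtcaggtcg
Cd8a, 7mer-A1, chr6:71378085-71378091, plus strand, exon 4 of 4: ctcttggcatgGAATGTAgcctgtactaaa
Cd28, 7mer-A1, chr1:60771152-60771158, plus strand, exon 4 of 4: cggatcaactgGAATGTAtctggggacctt
Ms4a1, 8mer, chr19:11250813-11250820, minus strand, exon 7 of 7: tgtaatttagtTGAATGTAagaagcaagcc
Ptprc, 7mer-A1, chr1:138064302-138064308, minus strand, exon 30 of 30: tcattcagcagGAATGTAtatgtgagagag
A match is a run of letters and not a measured binding site.

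Levels are FPKM as deposited, that is, reads scaled by gene length and by library total. The recovered totals ran from 18985912 to 20657019 reads per liver, of which the members took 3663 to 6058. The summed hepatocyte markers lay at 33660 to 40460 FPKM in control and 35461 to 39910 FPKM in miR-181d-5p livers. Summed over the 32 members, the level was 80.4 to 125.8 FPKM. Differences were tested with limma on log2(FPKM + 1), over the 12053 genes that averaged 0.5 FPKM or more, and are given as miR-181d-5p minus control. This scale understates the change of low genes, which most members are. In bulk liver, fewer cells of a type and less RNA per cell cannot be told apart.

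Most lymphocyte genes had a lower mean in the miR-181d-5p livers, but no single gene passed the test. The control mean was the higher one for 26 of the 32 members and the miR-181d-5p mean for 6. A mean of at least 0.5 FPKM was reached by 25 members, and 7 stayed below it: Cd247, Cd28, Tbx21, Eomes, Prf1, Ncr1 and Ms4a1. Of the 25 tested, 21 had a lower and 4 a higher log2 level, with a median difference of -0.19. Over all 12053 genes, 54.5% were lower and the median was -0.02.

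With limma's Benjamini-Hochberg adjustment, 0 of 25 members passed 0.05, and 0% of all genes did. The smallest adjusted p of a member was 0.221, and the smallest of any gene was 0.142. At an unadjusted p under 0.05, limma had 1768 genes in either direction, and limma voom on the recovered reads had 0 adjusted and 1744 unadjusted calls. At that unadjusted level 5 of 25 members (20%) were lower, Runx3, Il2rg, Cd4, Cd3d and Lck, where 9.63% of all genes were. No member was higher at that level, against 5.04% of all genes. All 5 livers of one group lay below all 5 of the other for 2 members, Runx3 and Cd4, against 1.45% of all genes. In the opposite direction 0 members were separated, against 1.02%.

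**Figure D1:**
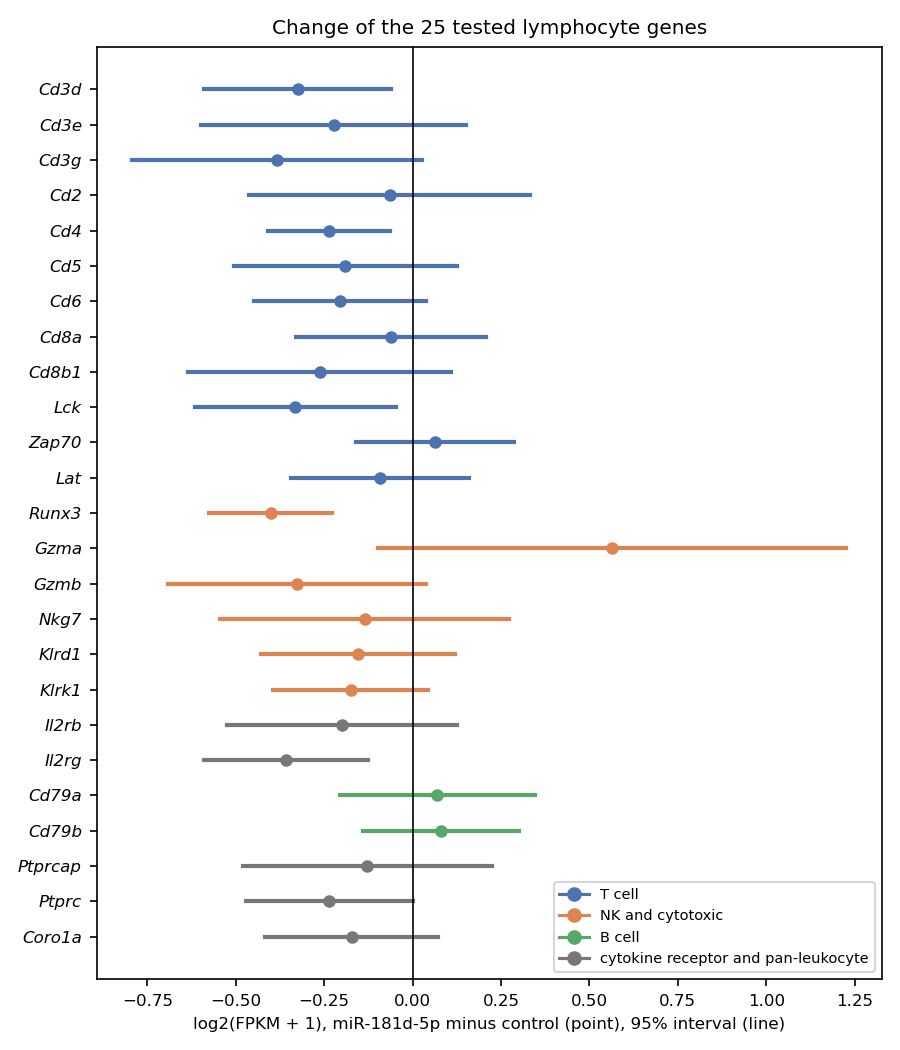
Log2 differences in log2(FPKM + 1), miR-181d-5p minus control, with 95% intervals from limma, for the 25 members tested. Points to the left of 0 are lower with miR-181d-5p; 21 of 25 lie there, Runx3 is at -0.40 and Gzma at 0.56.

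The CD3 chains carry the signal of the T cell receptor. Cd3d (chr9:44981786-44987339) stood at 1.37, 1.66, 1.84, 2.60 and 1.93 FPKM in control livers 1 to 5, and at 1.49, 0.896, 1.57, 1.53 and 0.999 FPKM in miR-181d-5p livers 1 to 5. All but control 1 among the controls exceeded every miR-181d-5p liver. The log2 difference was -0.32 (SE 0.12, 95% interval -0.59 to -0.06, limma adjusted p 0.278).

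Cd3g (chr9:44969572-44980431) was the most abundant of the chains. Its control livers read 1.72, 2.86, 3.59, 5.53 and 3.42 FPKM, and the miR-181d-5p livers 2.95, 1.61, 2.47, 2.21 and 2.21 FPKM. Control 4 stood far above the rest, and control 1 lay among the low livers of the other group. The difference was -0.38 (SE 0.19, limma adjusted p 0.365).

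Cd3e (chr9:44998740-45009627), the chain most used as a T cell marker, read 0.847, 1.46, 0.984, 2.45 and 0.961 FPKM in control livers. In miR-181d-5p livers it read 1.50, 0.562, 0.683, 1.15 and 0.996 FPKM. The groups overlapped, and the means of 1.34 ± 0.664 and 0.978 ± 0.376 FPKM (SD, n = 5) lay within 1 SD of each other. The log2 difference of -0.22 (SE 0.17, limma adjusted p 0.548) was -0.07 without control 4.

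Cd247 encodes the zeta chain, which holds most of the receptor's signalling motifs. It ran from 0.0965 to 0.271 FPKM in control and from 0.159 to 0.272 FPKM in miR-181d-5p livers, with 139 against 152 reads. It was too low for the main test; in limma voom on genes with at least 10 reads its difference was 0.19 (95% interval -0.42 to 0.79). In the annotation 56.4% of its exon bases overlap exons of Pou2f1 on the opposite strand. The sources used here do not give the strand setting of the counting, so part of its count may belong to that gene. The length recovered from the FPKM values equalled the annotated exon length for 0 of the 32 members. The overlap shares given here and below may therefore not hold for the bases that were counted.

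Summed over Cd3d, Cd3e and Cd3g, with Cd247 left out, the level was 3.93, 5.99, 6.42, 10.6 and 6.31 FPKM in control livers. In miR-181d-5p livers the sum was 5.95, 3.07, 4.72, 4.88 and 4.21 FPKM. The miR-181d-5p mean was 68.7% of the control mean, and 80.6% of it without control 4.

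Among coreceptors, Cd4 marks helper and regulatory T cells and is also found on some macrophages and dendritic cells. Cd4 (chr6:124864692-124888221) read 0.700, 0.558, 0.659, 1.02 and 0.661 FPKM in control livers. It read 0.517, 0.474, 0.304, 0.484 and 0.508 FPKM in miR-181d-5p livers. Every miR-181d-5p liver lay below every control liver, with 156 against 246 reads in all. The means were 0.457 ± 0.0876 and 0.720 ± 0.176 FPKM (SD, n = 5), so the level with miR-181d-5p was 63.5% of the control level. The log2 difference of -0.24 (SE 0.08, 95% interval -0.41 to -0.06) had a limma adjusted p of 0.253. On the recovered reads, where 1 is not added to the FPKM, voom gave -0.64. This gene carries an 8mer 67 bases into a 3′ UTR of 1553 bases.

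Cd8a (chr6:71373427-71379173), the chain of cytotoxic T cells that some dendritic cells also make, differed little. Control livers read 0.958, 1.15, 1.30, 1.71 and 0.750 FPKM, and miR-181d-5p livers 1.60, 0.820, 0.942, 1.09 and 0.933 FPKM. The groups overlapped over most of their range. The means were 1.18 ± 0.365 and 1.08 ± 0.309 FPKM (SD, n = 5), and the log2 difference was -0.06 (95% interval -0.33 to 0.21, limma adjusted p 0.836). Its 2 matches, an 8mer and a 7mer-A1, were the most of any member. Cd8b1, its partner chain on cytotoxic T cells, ran from 0.810 to 2.66 FPKM in control and from 0.784 to 1.69 FPKM in miR-181d-5p livers (log2 difference -0.26, limma adjusted p 0.477).

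The adhesion and costimulatory receptors of T cells overlapped between the groups. Cd6, a receptor that moderates T cell activation, read 0.477, 0.740, 0.572, 1.18 and 0.429 FPKM in control livers. With miR-181d-5p it read 0.388, 0.303, 0.364, 0.553 and 0.613 FPKM. The groups overlapped, and the difference was -0.21 (SE 0.11, limma adjusted p 0.404). Cd5, a negative regulator of the receptor signal, ran from 0.442 to 1.38 and from 0.224 to 0.852 FPKM (-0.19, limma adjusted p 0.542). Cd2, an adhesion receptor, ran from 0.994 to 2.97 and from 1.18 to 2.16 FPKM (-0.06, limma adjusted p 0.884). Control 4 was the highest of the 10 livers for Cd2, Cd4, Cd5, Cd6, Cd8a and Cd8b1.

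Cd28, the main costimulatory receptor, was too low for the main test. It ran from 0.241 to 0.578 FPKM in control livers and from 0.223 to 0.321 FPKM in miR-181d-5p livers. The total was 185 reads against 118, and the miR-181d-5p mean was 64.3% of the control mean. When no filter was set, its log2 difference was -0.15 (limma adjusted p 0.368). Controls 1 and 2 lay within the range of the other group.

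**Figure D2:**
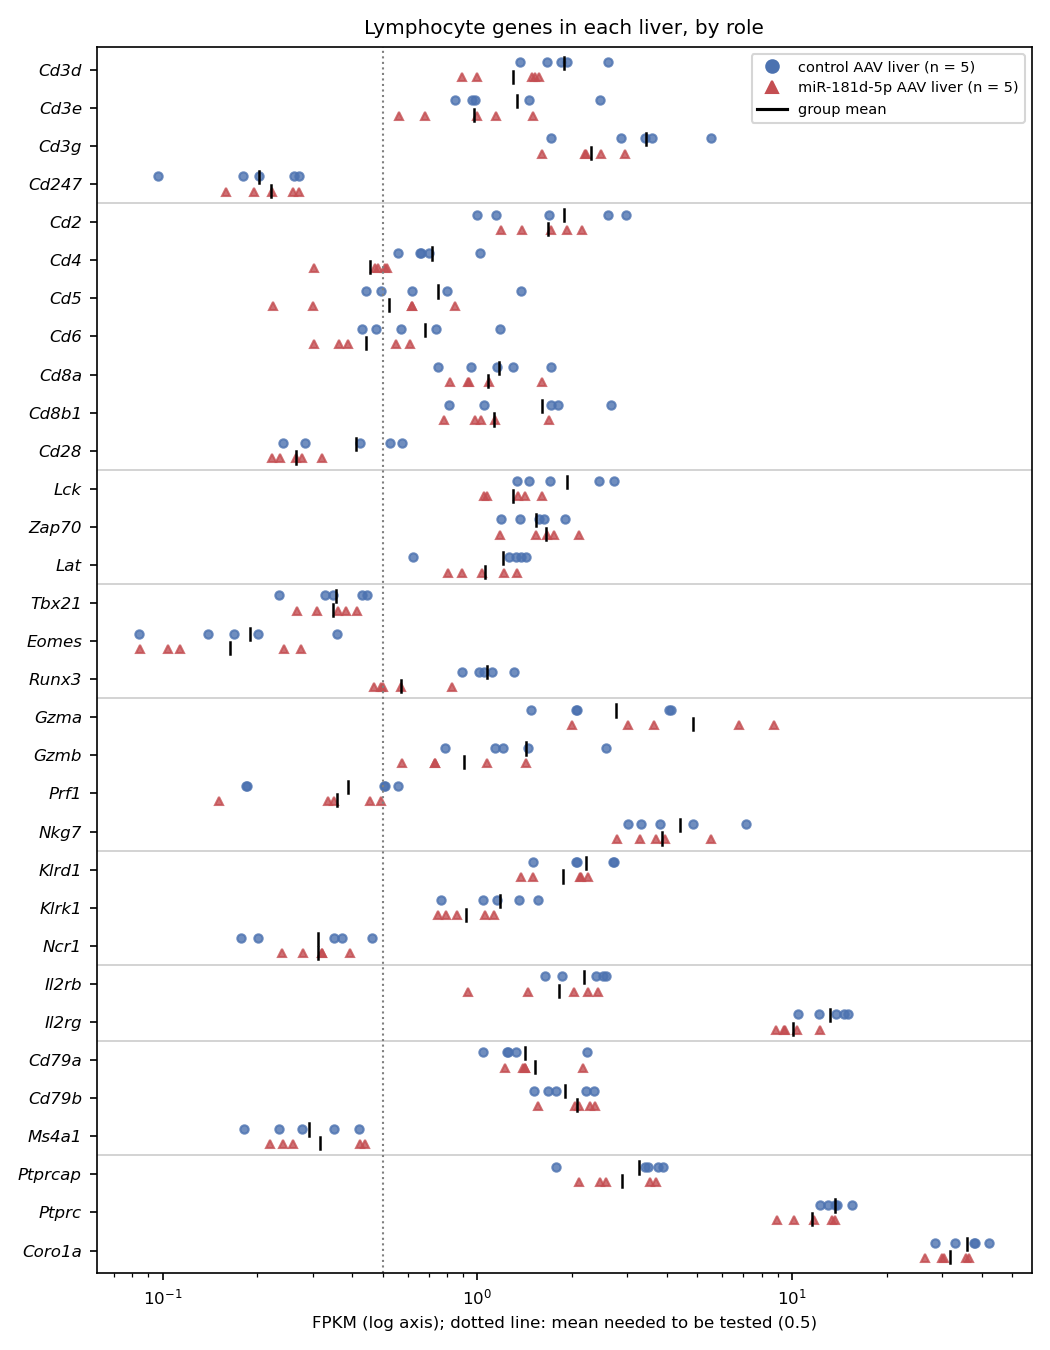
FPKM (log axis) of each of the 32 members in each of the 10 livers, control and miR-181d-5p in different colours, with group means as black ticks and the mean of 0.5 FPKM needed for the test as a dotted line. The 2 groups overlap for 30 members; only Runx3 and Cd4 have all miR-181d-5p livers below all control livers.

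Behind the receptor, the kinase Lck starts the signal. Lck (chr4:129548344-129573641) read 1.46, 1.71, 2.44, 2.72 and 1.34 FPKM in control and 1.60, 1.05, 1.35, 1.07 and 1.42 FPKM in miR-181d-5p livers. Controls 2, 3 and 4 lay above every miR-181d-5p liver, and controls 1 and 5 among them. The means were 1.93 ± 0.612 and 1.30 ± 0.236 FPKM (SD, n = 5), with a log2 difference of -0.33 (SE 0.13, limma adjusted p 0.300). Zap70, the kinase recruited next, which NK cells use too, ran from 1.19 to 1.90 and from 1.18 to 2.11 FPKM, with a difference of 0.06 (limma adjusted p 0.795). Lat, the scaffold that both kinases lead to, ran from 0.625 to 1.43 and from 0.805 to 1.34 FPKM (-0.09, limma adjusted p 0.727). Zap70 was the 1 T cell gene among the 12 tested with a higher level in the miR-181d-5p group. The difference between Lck and Zap70 was not tested.

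Of the transcription factors of effector lymphocytes, Runx3 had the smallest p of all members. Runx3 drives the programme of cytotoxic T cells, where it silences Cd4, and acts in NK cells and some myeloid cells as well. Runx3 (chr4:135120652-135177990) read 1.05, 1.11, 0.895, 1.31 and 1.01 FPKM in control livers. It read 0.829, 0.574, 0.492, 0.503 and 0.471 FPKM in miR-181d-5p livers. The groups did not overlap, and miR-181d-5p 1 was the liver nearest to the controls. The means were 1.08 ± 0.154 and 0.574 ± 0.148 FPKM (SD, n = 5), 463 against 247 reads, and the level with miR-181d-5p was 53.4% of the control level.

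The log2 difference of Runx3 was -0.40 (SE 0.08, 95% interval -0.57 to -0.23), with a limma adjusted p of 0.221. On the recovered reads voom gave -0.92. Over the 23 alternative settings that tested it the limma adjusted p stayed between 0.110 and 0.502, and with each liver left out in turn the difference ran from -0.46 to -0.36. Its 3′ UTR of 2158 bases held 0 of the seed matches searched.

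Tbx21 and Eomes, the T-box factors of cytotoxic and NK cells, were below the filter. Tbx21 ran from 0.234 to 0.446 FPKM in control and from 0.267 to 0.414 FPKM in miR-181d-5p livers, with 89 against 87 reads. Eomes ran from 0.0842 to 0.357 and from 0.0847 to 0.276 FPKM, with 70 against 60 reads. At this depth no difference was detectable for either: the voom intervals ran from -0.56 to 0.54 and from -1.14 to 0.71.

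The 2 granzymes lay on opposite sides of 0. Gzma, a granule protease of NK cells and cytotoxic T cells (chr13:113093825-113100981), read 2.05, 1.48, 4.06, 4.13 and 2.07 FPKM in control livers. With miR-181d-5p it read 6.80, 3.02, 3.65, 8.76 and 2.0 FPKM. Only miR-181d-5p 1 and 4 exceeded the highest control, and the other 3 lay within the control range. The log2 difference of 0.56 (SE 0.31, 95% interval -0.10 to 1.23, limma adjusted p 0.402) was the largest positive one among the members tested.

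Gzmb (chr14:56258838-56262260), the granzyme that cleaves caspases, read 0.787, 1.14, 1.45, 2.57 and 1.21 FPKM in control and 1.42, 0.576, 0.732, 1.08 and 0.732 FPKM in miR-181d-5p livers. Its difference was -0.33 (SE 0.17, limma adjusted p 0.380), with control 4 the highest liver. Perforin, Prf1, which opens the target membrane for granzymes, ran from 0.184 to 0.559 and from 0.151 to 0.492 FPKM, with 86 against 78 reads. Nkg7, a granule membrane protein, ran from 3.01 to 7.14 and from 2.79 to 5.54 FPKM (-0.14, limma adjusted p 0.752). The granule genes thus showed no shared direction, and none of the 3 tested was lower or higher at an unadjusted p under 0.05.

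NK receptors overlapped between the groups. Ncr1, the activating receptor NKp46 that defines NK cells, read 0.351, 0.462, 0.371, 0.200 and 0.177 FPKM in control livers. With miR-181d-5p it read 0.278, 0.395, 0.322, 0.321 and 0.239 FPKM. Both groups held 45 reads in all, and the voom difference was 0.06 (95% interval -0.67 to 0.79), so at this depth a moderate change in either direction could not have been seen. Klrd1, which encodes CD94, ran from 1.50 to 2.73 and from 1.38 to 2.24 FPKM (-0.16, limma adjusted p 0.570). Klrk1, which encodes the activating receptor NKG2D, ran from 0.768 to 1.56 and from 0.751 to 1.13 FPKM (-0.18, limma adjusted p 0.428).

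Cytokine receptor chains were among the better measured members. Il2rg (chrX:101264378-101268255) is the common gamma chain of the receptors for several interleukins, among them IL-2, IL-7 and IL-15, and myeloid cells carry it too. It read 10.4, 13.8, 14.6, 15.0 and 12.2 FPKM in control and 12.2, 9.40, 9.50, 8.89 and 10.4 FPKM in miR-181d-5p livers. Controls 2, 3 and 4 were above every miR-181d-5p liver, controls 1 and 5 were below miR-181d-5p 1, and the other 4 miR-181d-5p livers were below every control. The means were 13.2 ± 1.89 and 10.1 ± 1.32 FPKM (SD, n = 5), from 2156 and 1640 reads. The log2 difference was -0.36 (SE 0.11, 95% interval -0.59 to -0.13, limma adjusted p 0.240). In the annotation 30.5% of its exon bases are shared with Gm20489 on the same strand, a gene not analysed here. Il2rb, the beta chain of the IL-2 and IL-15 receptors and abundant on NK cells, ran from 1.64 to 2.57 and from 0.935 to 2.42 FPKM (-0.20, limma adjusted p 0.536).

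B cell genes stood on the other side of 0. Cd79a (chr7:24897381-24902197), a signalling chain of the B cell antigen receptor, read 1.24, 1.25, 1.04, 1.32 and 2.24 FPKM in control and 1.23, 1.40, 1.42, 1.41 and 2.16 FPKM in miR-181d-5p livers. Each group had 1 liver, number 5, well above its others. The difference was 0.07 (95% interval -0.21 to 0.35, limma adjusted p 0.818). Its partner Cd79b ran from 1.52 to 2.34 and from 1.55 to 2.36 FPKM (0.08, 95% interval -0.14 to 0.30, limma adjusted p 0.726). Ms4a1, which encodes CD20, read 0.278, 0.351, 0.233, 0.182 and 0.420 FPKM in control and 0.241, 0.260, 0.424, 0.440 and 0.220 FPKM in miR-181d-5p livers, with 85 against 92 reads. All 3 B cell members had a miR-181d-5p mean at 107% to 109% of the control mean, a size within their spread. That the B cell genes and the T cell genes differ in their response was not tested.

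The pan-leukocyte members include the most abundant of the list, and macrophages make Ptprc and Coro1a too. Ptprc (chr1:138062861-138175708), the phosphatase CD45, read 12.3, 13.7, 13.0, 15.5 and 13.9 FPKM in control livers. With miR-181d-5p it read 13.7, 10.1, 13.4, 8.96 and 11.7 FPKM. The groups overlapped, and the difference was -0.24 (SE 0.11, limma adjusted p 0.340). Coro1a, an actin-binding protein of all leukocytes, stood at 36.0 ± 5.38 FPKM in control and 31.8 ± 4.20 FPKM with miR-181d-5p (SD, n = 5; -0.17, limma adjusted p 0.480). Ptprcap, a small membrane protein bound to CD45 in lymphocytes, ran from 1.77 to 3.88 and from 2.11 to 3.69 FPKM (-0.13, limma adjusted p 0.729). In the annotation 76.0% of its exon bases overlap Rps6kb2 on the opposite strand and 26.8% overlap Coro1b on the same strand, so its count is uncertain.

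Ranked by mean FPKM over the 10 livers, the members ran from Coro1a at 33.9, Ptprc at 12.6 and Il2rg at 11.7 FPKM, through Nkg7 at 4.13 and Gzma at 3.80 FPKM, to Eomes at 0.177 FPKM. Every gene that marks 1 lymphocyte lineage lay below Coro1a, Ptprc and Il2rg.

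By cell type, 11 of the 12 tested T cell genes were lower, with a median of -0.21, and 3 of them at an unadjusted p under 0.05 (Cd4, Cd3d and Lck). Of the NK and cytotoxic genes 5 of 6 tested were lower, with a median of -0.17, Runx3 alone at that level. All 5 shared genes were lower, with a median of -0.20, Il2rg alone at that level. Of the 3 B cell genes, the 2 tested were higher, with a median of 0.08.

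The livers also differed within the groups. Summed over the 14 T cell genes, the level was 12.4, 16.7, 20.2, 28.0 and 16.4 FPKM in control and 17.6, 11.8, 13.8, 14.7 and 14.0 FPKM in miR-181d-5p livers. The lowest control lay below all miR-181d-5p livers but 1, and the highest control stood apart from all others. The miR-181d-5p mean was 76.7% of the control mean, and 87.5% of it without control 4. Control 4 was the highest of the 10 livers for 16 of the 32 members, and for 10 of the 14 T cell genes. The share of all genes highest in control 4 is not given here, so this may not be particular to these genes.

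The NK and cytotoxic sum was 11.1, 11.9, 16.8, 20.3 and 11.4 FPKM in control and 19.3, 11.2, 11.8, 17.5 and 11.0 FPKM in miR-181d-5p livers. The miR-181d-5p mean was 98.8% of the control mean. Gzma made up 6.80 of the 19.3 FPKM in miR-181d-5p 1 and 8.76 of the 17.5 FPKM in miR-181d-5p 4. Without control 4 the miR-181d-5p mean was 110% of the control mean. The shared genes summed to 54.8 to 74.5 FPKM in control and 48.8 to 68.4 FPKM in miR-181d-5p livers, where the mean was 85.0% of the control mean. The B cell sum ran from 3.02 to 4.44 FPKM in control and from 3.76 to 4.02 FPKM in miR-181d-5p livers. Control 4, the highest in T cell genes, was the lowest of the 10 in B cell genes.

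**Figure D3:**
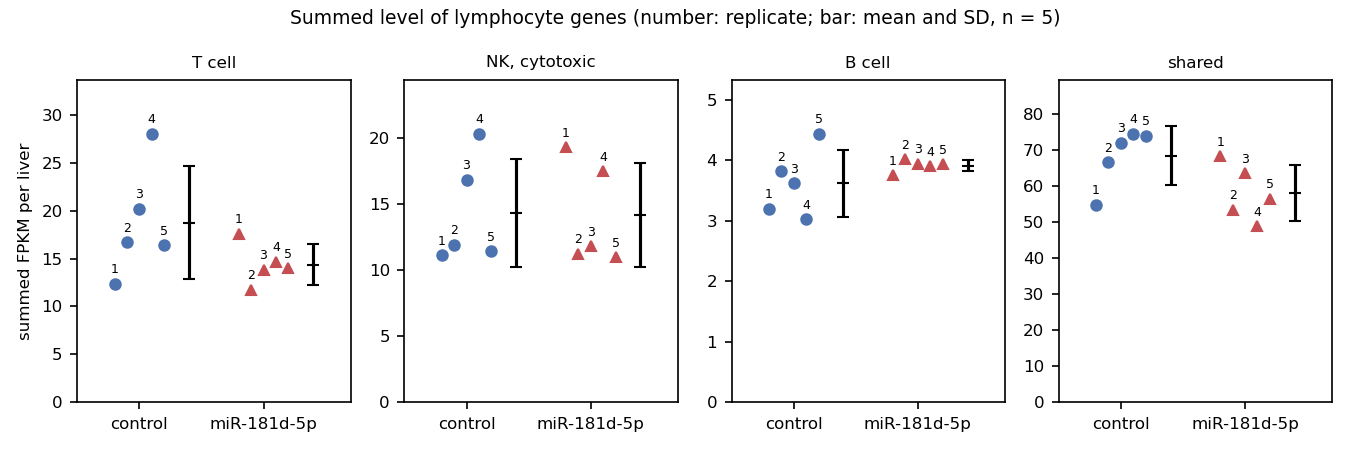
Summed FPKM per liver of the T cell, NK and cytotoxic, shared and B cell members; each numbered point is 1 liver, and the bars give the group mean and SD (n = 5). Control 4 reaches 28.0 FPKM in the T cell sum, where the other 4 controls lie between 12.4 and 20.2 FPKM and the miR-181d-5p livers between 11.8 and 17.6 FPKM.

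Without control 4, 17 of 24 tested members were lower, with a median of -0.12, and 3 had an unadjusted p under 0.05: Runx3, Il2rg and Cd4. In that fit the median of all genes was -0.0046, and 6.77% of them were lower at that level. Those 3 had such a p with each of the 10 livers left out in turn. Cd3d and Lck did not, and neither had one with quantile normalization. Leaving out control 1, the low one, gave 12 lower members at that level, against 10.5% of all genes. Leaving out miR-181d-5p 1 gave 8 (9.27% of all genes), and leaving out miR-181d-5p 2 gave 3 (6.86%). At the low end, miR-181d-5p 2 was the lowest liver for 10 of the 32 members. The share of all genes lowest in that liver is not given here. The control group was also the more variable: its SD was the larger for 27 of 32 members, and for 77.1% of all tested genes.

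**Figure D4:**
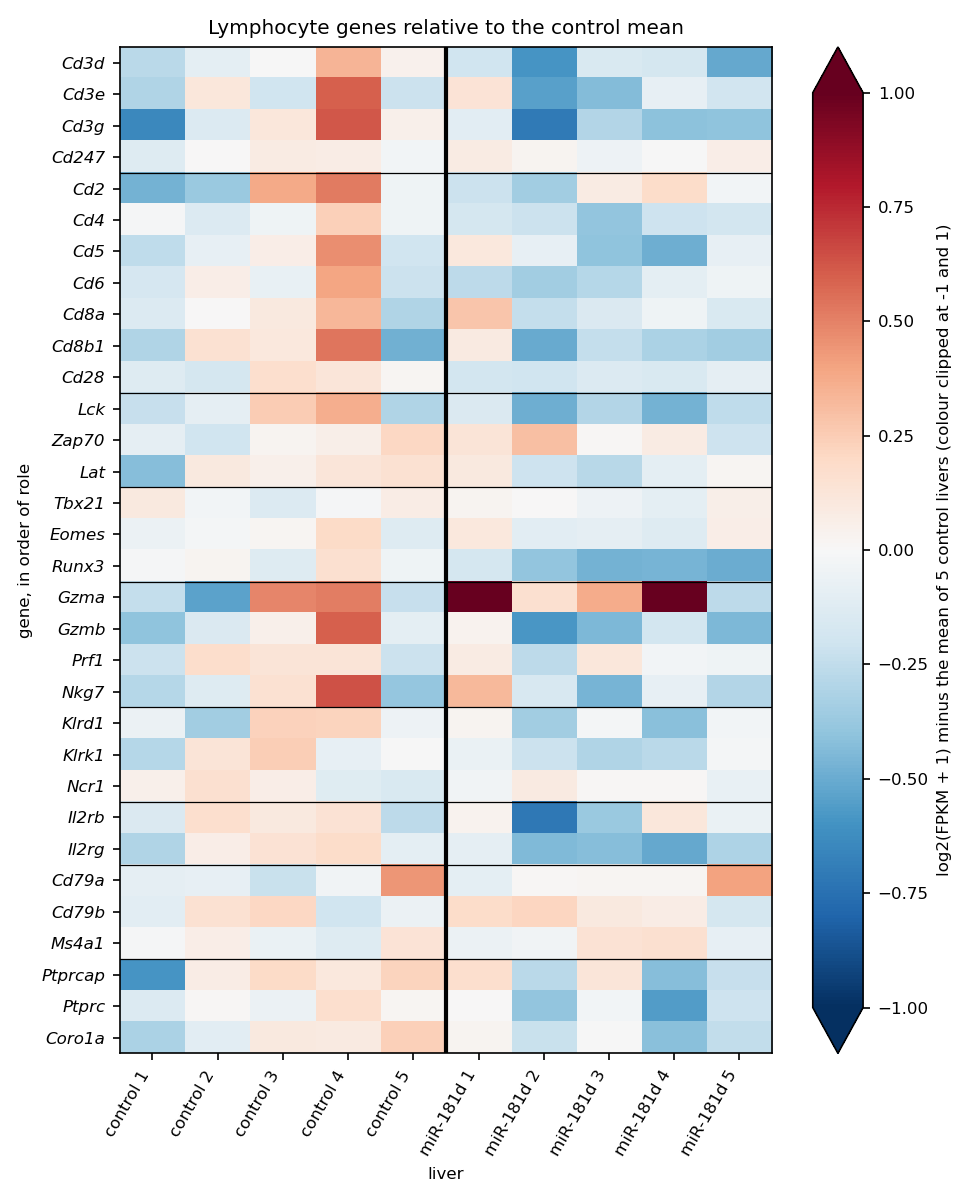
Each member's log2(FPKM + 1) in each liver minus its control mean, shown as colour clipped at -1 and 1, with members as rows and livers as columns. Of the 25 members tested, control 4 is above the control mean for 22 and control 1 for 0, and miR-181d-5p 1 is above it for 15, the other miR-181d-5p livers for 2 to 6.

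Members with and without a seed match were set side by side. The median log2 difference was -0.24 over the 3 tested members with a match (Cd4, Cd8a and Ptprc) and -0.18 over the 22 without. The matched side rests on only 3 genes, and the difference between the medians was not tested. Cd4, with 1 8mer, and Cd8a, with an 8mer and a 7mer-A1, stood at -0.24 and -0.06. Ms4a1, with an 8mer, was below the filter and had a slightly higher mean with miR-181d-5p, at 108% of the control mean.

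Other genes of the same cells, from lists written with an earlier account of these data known, gave the following counts. Beside each list, 54.5% of all 12053 tested genes were lower, and 9.63% were lower at an unadjusted limma p under 0.05. Of any of these lists 0 genes passed limma's adjusted threshold. Of other T cell and receptor signalling genes 13 of 14 tested were lower, 6 at an unadjusted p under 0.05, with a median of -0.20. Those 6 included the adaptor Fyb (-0.35, limma adjusted p 0.240) and the adaptor Lcp2, or SLP-76 (-0.24, limma adjusted p 0.250). Fyb and Lcp2 are made by myeloid cells as well.

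Of naive and central memory genes 5 of 6 tested were lower, 2 at that level, with a median of -0.18. They were led by the quiescence factor Klf2, abundant in endothelium too (-0.40, limma adjusted p 0.240), the interleukin 7 receptor Il7r (-0.42, limma adjusted p 0.250) and the homing receptor Ccr7 (-0.20, limma adjusted p 0.344). Of regulatory, activated and exhausted T cell genes 9 of 9 tested were lower, 2 at that level, with a median of -0.14. Havcr2, the checkpoint receptor TIM-3 that macrophages also carry, was separated between the groups (-0.41, limma adjusted p 0.222). The costimulatory receptors Tnfrsf9, or 4-1BB, and Tnfrsf18, or GITR, followed at -0.32 and -0.24 (limma adjusted p 0.240 and 0.470).

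Of other NK genes 4 of 6 tested were lower, 1 at that level. They were led by the adaptor Sh2d1b1 (-0.26, limma adjusted p 0.336), by Tyrobp, or DAP12 (-0.25, limma adjusted p 0.460), and by the granzyme Gzmk (-0.29, limma adjusted p 0.559). Tyrobp stood at 264 FPKM in control and 221 FPKM in miR-181d-5p livers, and macrophages make it as well. Of other B and plasma cell genes 10 of 10 tested were lower, 3 at that level, with a median of -0.17. The lead genes were Cd72 (-0.38, limma adjusted p 0.257), Cd38 (-0.24, limma adjusted p 0.259) and the plasma cell chaperone Mzb1 (-0.23, limma adjusted p 0.288). The first of these is also found on macrophages and the second on several liver cell types, and this list and the 3 B cell members stood on opposite sides of 0.

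Of chemokines and receptors that draw lymphocytes 16 of 17 tested were lower, 5 at that level, with a median of -0.20. Cxcr4, the receptor of Cxcl12, had separated groups, at 8.23 ± 1.54 against 5.16 ± 0.907 FPKM (SD, n = 5; -0.58, limma adjusted p 0.221). The chemokines Cxcl16 and Cx3cl1 followed at -0.30 and -0.38 (limma adjusted p 0.311 and 0.312). The 4 phosphatases known as miR-181a targets in T cells were all lower, 1 at an unadjusted p under 0.05, with a median of -0.16: Ptpn22 at -0.20, Dusp5 at -0.55 and Dusp6 at -0.12 (limma adjusted p 0.334, 0.443 and 0.780). Ptpn22 is also in the T cell list.

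Of 11 lists of markers of other cells or cell states, 9 had a median below 0 and 2, the hepatocyte and Kupffer cell lists, a median above it, and 0 of their genes passed limma's adjusted threshold. Of all genes tested, 9.63% were lower and 5.04% higher at an unadjusted limma p under 0.05. The 9 macrophage and monocyte markers were all lower, 4 of them at an unadjusted p under 0.05, with a median of -0.31. Their sums were 1637 to 2332 FPKM in control, highest in control 4, and 1044 to 2188 FPKM in miR-181d-5p livers. Stellate cell markers were lower in 5 of 6, all 5 at that level (median -0.34), with sums of 401 to 551 against 301 to 398 FPKM. Cell cycle genes were lower in 5 of 6, 3 at that level (median -0.16), with sums of 25.1 to 27.1 against 20.2 to 25.2 FPKM. Dendritic cell markers were lower in 5 of 6 tested, 1 at that level (median -0.07), with sums of 18.1 to 26.7 against 13.5 to 22.0 FPKM. Endothelial markers were lower in 4 of 6, 2 at that level (median -0.10), with sums of 112 to 129 against 112 to 119 FPKM. Kupffer cell markers leaned the other way, higher in 4 of 6, 1 at that level (median 0.07), while their sums were 513 to 655 against 499 to 589 FPKM. None of the markers of these lists was at 0 in all livers. Their part in the levels of Ptprc, Coro1a, Il2rg, Cd4, Runx3, Fyb, Lcp2, Havcr2, Tyrobp and Cd72 was not tested.

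The immediate early genes, which respond fast to many stimuli, were lower in 7 of 7, 0 of them at an unadjusted p under 0.05. Their median of -0.52 was further from 0 than that of any other list. Their sums were 147 to 838 FPKM in control livers and 166 to 219 FPKM in miR-181d-5p livers. The 838 FPKM was that of control 5, and the other controls lay between 147 and 245 FPKM, overlapping the miR-181d-5p livers. Erythroid markers were lower in 4 of 5 (median -0.09), with sums of 166 to 1168 against 172 to 762 FPKM. Platelet markers were lower in 3 of 3 tested (median -0.08), with sums of 8.50 to 22.9 against 8.53 to 14.4 FPKM. Neutrophil markers were lower in 5 of 7 tested (median -0.07), with sums of 54.1 to 123.6 against 55.6 to 88.7 FPKM. In these 3 lists 0 genes had an unadjusted p under 0.05. Control 5 had the highest sum of the 10 livers in the immediate early, erythroid, platelet, neutrophil, endothelial, Kupffer cell, dendritic cell, stellate cell and hepatocyte lists, and the highest level for 4 of the 32 members. The part of these signals in the members' values was not tested.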

How the data were processed

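Liver RNA of 10 samples, 5 a group, was read as mRNA libraries made with a stranded kit, per the labels' protocols. The authors deposited 1 table of FPKM values. Per the submitters' processing notes the tools included Trimmomatic 0.38, HISAT2 2.2.1 and HTSeq 0.13.5 with the mm10 build. The FPKM formula and the strand setting are not given in the sources used here.

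Values were fitted with limma 3.58.1 (R 4.3.3) as log2(FPKM + 1), with a mean-variance trend, group as the only term, a mean of at least 0.5 FPKM over all livers, two-sided tests and Benjamini-Hochberg adjustment over 12053 genes. The fit was tested on simulated data. Whole reads were recovered from the deposited FPKM values, within 0.02 of a read, for 17216 of 17274 genes. Another 57 genes were at 0 in all livers, and 100% of the tested values were whole. Limma voom was run on these reads (0 genes called). A further voom fit, on genes with at least 10 reads in all, was added after seeing the data (0 genes called). Between livers of a group, chi-square over its degrees of freedom was at least 8.79, so no 2 were counted as 1. The labels give no batch.

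The members and lists were chosen with earlier results of these data known. Each member is named. Values in every liver are given for the 10 members with the smallest p and for Cd3e, Cd4, Cd8a, Ncr1, Cd79a and Ms4a1, and up to 3 genes of each further list, by smallest p, are named, except 1 that is not reported here. List genes missing from the table were not analysed here. Alternatives were other pseudocounts, filters, scalings, array weights, robust fitting, a replicate block and leaving out each liver. Python 3.11.15 with pandas 2.3.3 and matplotlib 3.10.9 did the rest. Positions are 1-based, from GENCODE vM21 (mm10).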

Additional observations from a re-analysis of the deposited data

Results flagged for a closer look

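Within groups of 5 livers, a sample was singled out where its gap to the nearest other exceeded 0.71 of the group's range. This held for 6 of 72 groups examined, and chance gives about 1 in 20. Cd4 was lowest in miR-181d-5p 3, at 0.304 FPKM against 0.474 to 0.517 in the others. Runx3 was highest in miR-181d-5p 1, at 0.829 against 0.471 to 0.574 FPKM. Lat and Ptprcap were both lowest in control 1, at 0.625 against 1.27 to 1.43 FPKM and at 1.77 against 3.40 to 3.88 FPKM. Cd79a was highest in control 5, at 2.24 against 1.04 to 1.32 FPKM, and in miR-181d-5p 5, at 2.16 against 1.23 to 1.42 FPKM.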

How the results depend on the processing

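The 25 tested members gave 595 log2 differences under 24 alternative settings, of which 8 changed sign, and 21 members had none that did. No member passed an adjusted p of 0.05 in any of them (smallest 0.110). Lower members at an unadjusted limma p under 0.05 numbered 5 in the main fit, where 9.63% of all genes were lower at that level. They numbered 8 with array weights (10.8% of all genes) and 7 rescaled to a common sum (10.5%). A filter at a mean of 1 FPKM gave 3 (9.19%), as Runx3 and Cd4 are then not tested. Quantile normalization gave 4 (7.82%), with Cd3d and Lck lost and Ptprc gained. Robust fitting gave 6 (9.67%), voom 6 (9.88%), no filter 6 (8.27%) and a filter at 0.1 FPKM 6 (9.51%). With a liver left out they numbered 3 to 12, against 5.61% to 14.9% of all genes. Higher members numbered 0, and 1 with the replicate block and 0 to 1 with a liver left out (Gzma in each case). The changes of sign were those of Cd2 (0.0098 with quantile normalization, -0.18 to 0.064 with a liver left out), Cd8a (0.0097 and -0.15 to 0.022), Nkg7 (-0.25 to 0.023) and Cd79a (-0.014 to 0.18). The cause was not tested. With no filter 32 members were tested, 25 of them lower, Cd28 being the added one at an unadjusted p under 0.05. Scalings moved the median of all genes to between -0.04 and 0.01. Same-numbered livers did not deviate together (correlations -0.28 to 0.01), so the block pairs numbers only; it gave 5 lower and 1 higher member and 1 call among all 12053 genes. Depth limits the 7 members under 0.5 FPKM, which held 45 to 185 reads a group. Some tested members held as few and share this limit, such as Cd5 (156 control and 109 miR-181d-5p reads) and Cd79a (139 and 150 reads).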
